A study of Mus musculus with 8 samples.

Results

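The genes described are Cdk6 and 7 relatives that act at the start of the cell cycle, Cdk4, Cdk2, Ccnd1, Ccnd2, Ccnd3, Ccne1 and Ccne2, which makes 8 of the 21521 protein-coding genes used. They form a named set of G1 cyclins and cyclin-dependent kinases (CDKs). The set was selected on the number of RelA peaks at Cdk6 in these same data, so the peak counts are given as a description and were not tested. A peak was counted for a gene when its centre lay inside the gene or within 50 kb of either end. Binding of RelA, the p65 subunit of the transcription factor NF-kB, was located by ChIP-seq, in which DNA bound by a protein is precipitated with an antibody and sequenced. The cells were primary mouse embryonic fibroblasts, wild-type and of the C57BL/6 strain. Serum-starved cells received the inflammatory cytokine TNF at 10 ng/ml. RelA ChIP libraries were made at 0, 0.5 and 3 h of TNF, with 2 libraries at each time, beside 2 input DNA libraries. The deposited result is 1 list of 9829 peak positions, of which 9823 lie on chromosomes 1 to 19 and X, with no height, score, time or library attached.

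The list cannot tell untreated from TNF-treated cells, and it has no values for single libraries, so the read depth and the spread between cultures were unknown. A peak in it may have been seen at any of the times. No RNA was measured either, so the fibroblast identity of the cells was not checked against markers. With a single list, no comparison below has a replicate check.

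Cells commit to a new round of DNA synthesis late in G1. The kinases CDK4 and CDK6 bind D-type cyclins, which growth factors induce, and phosphorylate the retinoblastoma protein, which then releases E2F transcription factors. E2F factors switch on the genes for E-type cyclins, and these activate CDK2 and complete the phosphorylation. Inhibitors of the INK4 group act on CDK4 and CDK6, and those of the CIP/KIP group act mainly on CDK2 complexes.

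RelA peaks were unevenly spread over the 8 genes. Cdk6 had 10 peaks, 9 of them inside the gene, and the 7 relatives had 6 peaks in all. Cdk4 and Ccne2 had 2 each, Cdk2 and Ccnd3 had 1 each, and Ccnd1, Ccnd2 and Ccne1 had 0. At least 1 peak was thus present for 5 of the 8 genes, against 43.2% of all protein-coding genes. Peaks inside the gene were present for Cdk6 and Ccnd3, or 2 of 8, against 14.6% of all protein-coding genes. The same 2 genes lay within 10 kb of a peak centre, measured from the nearer gene end, against 17.1% of all. Within 1 kb the count was 0 of 8, against 6.34%. Over the 290 kb searched for Cdk6 there were 3.45 peaks per 100 kb, and over the 866 kb searched for the relatives 0.693. The whole list gives 0.382 peaks per 100 kb between the first and the last gene of each chromosome, so the Cdk6 window held 9.02 times and the windows of the relatives together 1.81 times that density. That density includes stretches far from genes, so part of either ratio may belong to gene windows in general. A density over the windows of all genes was not computed. The mean was 0.747 peaks per coding gene, counted inside or within 50 kb.

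**Figure D1:**
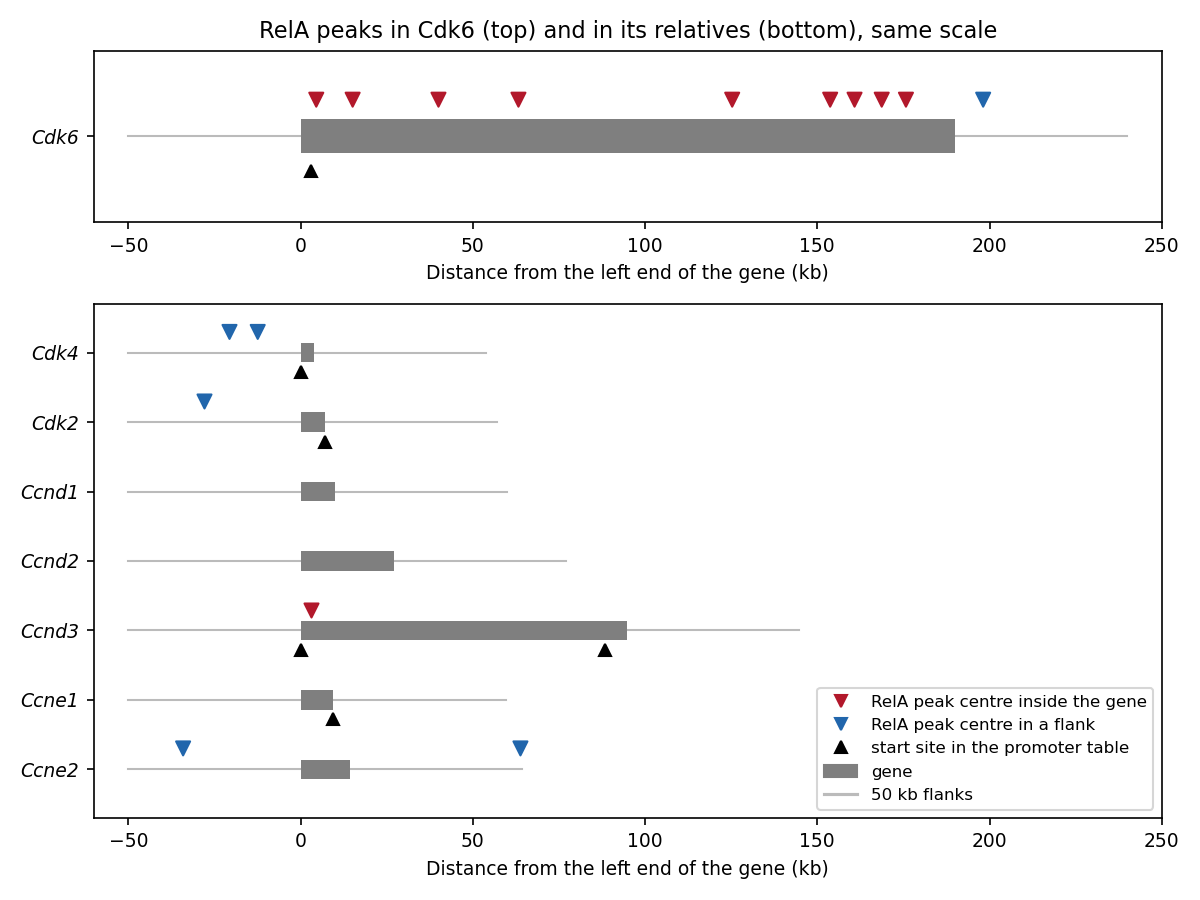
Each row is a gene (grey bar) with its 50 kb flanks (thin line), drawn to the same scale from the left end of the gene in kb. Triangles pointing down are RelA peak centres inside the gene (red) or in a flank (blue), and black triangles are start sites, shown for the 5 genes with one in the promoter table. Cdk6 holds 9 peaks inside, the other genes 0 or 1.

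The start site was the first place examined, a common place of transcription factor binding. RefSeq promoter windows of GRCm38.p6, which run from 250 bases before to 50 bases after a start site, were matched for Cdk6, Cdk4, Cdk2, Ccnd3 and Ccne1, in 6 windows. Ccnd1, Ccnd2 and Ccne2 had no entry, nor had Trp53inp1 and Ints8, which lie beside the Ccne2 peaks. Of the 10 Cdk6 peaks 0, and of all 16 peaks of the 8 genes 0, overlapped a promoter window of the table, against 11.1% of all peaks on the chromosomes the table covers. The windows of Cdk6 and of Cdk4, its closest relative, are shown because both kinases serve the same cyclins while their peaks lie on different sides of their start sites, downstream for Cdk6 and upstream for Cdk4. The windows of Rbl1, a relative of the retinoblastoma gene, and Cdk12, a kinase gene of transcription, are shown for contrast, since a peak covered all 300 bases of each. Capitals mark matches to GGGNNNNNCC on either strand, a loose form of the kappaB motif bound by NF-kB, with overlapping matches joined.
Cdk6 (chr5:3343643-3343942, + strand): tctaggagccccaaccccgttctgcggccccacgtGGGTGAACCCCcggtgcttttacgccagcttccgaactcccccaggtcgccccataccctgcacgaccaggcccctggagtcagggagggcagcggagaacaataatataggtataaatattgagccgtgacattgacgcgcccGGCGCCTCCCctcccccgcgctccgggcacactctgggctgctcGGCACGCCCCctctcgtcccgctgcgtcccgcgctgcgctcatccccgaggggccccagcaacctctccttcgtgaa
Cdk4 (chr10:127063285-127063584, + strand): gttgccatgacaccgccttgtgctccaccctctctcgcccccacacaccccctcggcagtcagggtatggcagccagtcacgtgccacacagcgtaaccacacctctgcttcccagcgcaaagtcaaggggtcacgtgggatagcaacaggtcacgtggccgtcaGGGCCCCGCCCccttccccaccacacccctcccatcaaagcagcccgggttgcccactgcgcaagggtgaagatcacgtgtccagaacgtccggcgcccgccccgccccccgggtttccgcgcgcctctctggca
Rbl1 (chr2:157204485-157204784, - strand): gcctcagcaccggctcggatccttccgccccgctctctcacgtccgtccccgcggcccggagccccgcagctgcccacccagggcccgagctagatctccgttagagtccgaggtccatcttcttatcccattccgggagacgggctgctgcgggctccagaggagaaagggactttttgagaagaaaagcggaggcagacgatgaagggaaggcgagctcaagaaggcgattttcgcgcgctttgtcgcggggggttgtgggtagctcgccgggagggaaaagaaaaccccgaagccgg
Cdk12 (chr11:98203055-98203354, + strand): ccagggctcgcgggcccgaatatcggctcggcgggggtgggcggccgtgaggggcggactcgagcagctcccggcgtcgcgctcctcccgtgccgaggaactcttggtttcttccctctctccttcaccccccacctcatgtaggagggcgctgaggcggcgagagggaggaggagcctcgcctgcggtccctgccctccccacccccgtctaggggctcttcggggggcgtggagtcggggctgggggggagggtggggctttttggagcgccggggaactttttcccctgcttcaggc

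The stricter kappaB consensus was found in 0 of the 6 windows of the G1 genes, and 4.51% of all 32851 windows hold it. The loose form was found in 6 of 6, and 50.8% of all windows hold it. The letters of these 6 windows were 59.3 to 76.0% G and C, and the loose form asks for 5 fixed G or C letters. Whether base composition bears on the matches was not tested. Among windows of other pathway genes that a peak overlapped, the loose form was found in 1 of 3. Neither form was found in the Rbl1 and Cdk12 windows, which a peak covered and which were 64.0 and 71.3% G and C. The window of Fbxo31, a gene described with the other G1 to S regulators, held 2 loose matches and 0 of the stricter form, and both matches lay in the 84 bases that its peak overlapped. A match is a description of the letters, and the sequence under the Cdk6 peaks themselves was not analysed here.

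Cdk6 encodes one of the kinases that start retinoblastoma phosphorylation. It lies on chromosome 5 from 3341004 to 3531008, a length of 190 kb, and is transcribed from left to right, with the start site of the promoter table at 3343893, 2.89 kb right of the left end. Its first peak (3345251 to 3345867, 617 bp) was centred 1.67 kb downstream of that start site, and began 1.31 kb beyond the promoter window shown above. This was the peak nearest to a gene end, at 4.55 kb, and 11.5% of protein-coding genes had a peak as close or closer. The next peaks downstream were an 845 bp peak at 3355696 to 3356540, a 551 bp peak at 3380761 to 3381311 and a 500 bp peak at 3404003 to 3404502. Their centres were 12.2, 37.1 and 60.4 kb downstream of the start site. The 500 bp peak also lies inside Gm29868, a long noncoding RNA gene within Cdk6.

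After these 4 peaks came the widest spacing in the gene, 62.1 kb. The fifth peak (3466099 to 3466507) was the narrowest, at 409 bp, and stood alone 122 kb from the start site. Only 0.743% of all peaks were narrower than this one.

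The remaining peaks inside Cdk6 stood close together near the 3′ side of the gene. They spanned 3494392 to 3495103 (712 bp), 3501329 to 3502315 (987 bp), 3509378 to 3510045 (668 bp) and 3516478 to 3517011 (534 bp). The spacings between their centres were 7.08, 7.89 and 7.03 kb. These 4 centres lay within 22.0 kb, at 80.9 to 92.5% of the length of the gene. Over the whole list the median span of 4 successive peaks was 467 kb, and 29 of 9763 such runs (0.297%) were as short or shorter. The 29 include this run, and runs overlap one another. These 4 peaks were picked out within a locus selected for its many peaks, so the share is a description only.

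Peak 10 (3538787 to 3539533, 747 bp) lay beyond the right end of Cdk6, by 8.15 kb, and 4.67 kb from the end of the next coding gene, Fam133b. Fam133b begins 12.8 kb from Cdk6 and had 5 peaks by the same rule, all of them shared with Cdk6. The second coding gene in the window, 1700109H08Rik, had 1 peak, which was the same peak. Gm36470, a long noncoding RNA gene that overlaps the left end of Cdk6, had 3 peaks, all shared with Cdk6. Gm29868, which lies within Cdk6, had 4 peaks by the same rule, all shared as well. A peak within 50 kb of several genes cannot be assigned to any of them from position alone. That holds also for the 9 peaks inside Cdk6 other than peak 5, the only one outside the windows of these other genes.

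The Cdk6 peaks lay close together, and the gap to the next peak was wider on the right than on the left. The 10 centres lay within 194 kb, and 19 of 9643 runs of 10 successive peaks in the list (0.197%) were as short or shorter, with a median of 1700 kb over all runs. Runs overlap one another, and the 19 include that of Cdk6. Because the set was selected on the peak count of Cdk6, a short run follows from that selection and is no separate evidence of clustering. To the left, the nearest other peak was the first of chromosome 5 in the list. It was 189 kb from the gene and 193 kb from the first Cdk6 peak. That gap was reached or passed by 33.3% of the 9803 spacings in the list. To the right, the nearest other peak was 704 kb from the gene and 696 kb from peak 10, and 8.16% of spacings were as wide or wider. The median spacing of successive Cdk6 centres was 22.4 kb, against 103 kb over the list.

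**Figure D2:**
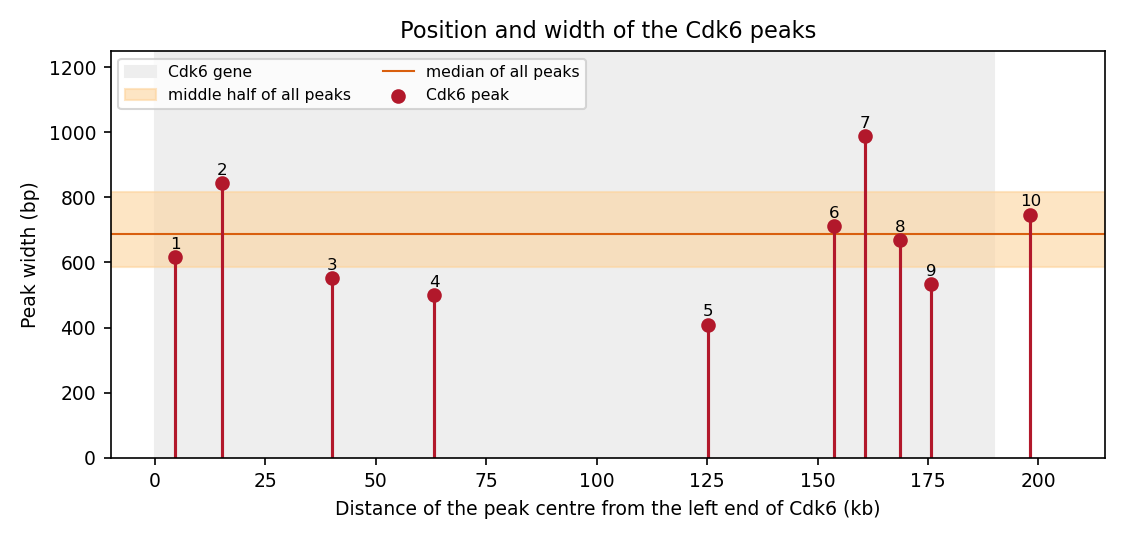
Each numbered line is a Cdk6 peak, placed by the distance of its centre from the left end of the gene (kb), with its height giving the peak width (bp). The grey field is the gene, the orange line the median width of all peaks (687 bp) and the orange band their quartiles (587 to 816 bp). The 10 Cdk6 peaks are 409 to 987 bp wide, and peaks 6 to 9 stand close together near the right end.

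The Cdk6 peaks were of ordinary width. Their median was 642 bp (quartiles 538 and 738 bp, n = 10 peaks), against 687 bp for all peaks on chromosomes (quartiles 587 and 816 bp). Of the 10, 6 were narrower than the median of all peaks, 4 lay under the first quartile and 2, of 845 and 987 bp, at or above the third quartile. The 6 peaks of the relatives had a median of 672 bp and a range of 461 to 836 bp. Together the 9 peaks inside Cdk6 covered 5.82 kb, or 3.06% of the gene. A width is no measure of the strength of binding, and none was given.

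A long gene offers more sequence for peaks, so Cdk6 was set beside genes of like length. Among the 900 protein-coding genes of 150 to 300 kb, the median was 1 peak inside the gene, 53.4% had at least 1 inside, and 64.9% had at least 1 inside or within 50 kb. As many as 9 inside were reached by 3 of the 900 (0.333%), which were Cdk6, Bicc1, an RNA-binding protein gene, and Smg6, a gene for an RNA decay factor. Per kb of gene, Cdk6 had 0.0474 peaks inside, Bicc1 0.0380 and Smg6 0.0377, while the 900 genes together had 0.00516. By this measure Cdk6 ranked highest in the class. Counted with both flanks, 4 of the 900 (0.444%) had at least the 10 peaks of Cdk6. Of the 5 genes nearest to Cdk6 in length, Hivep2 had 4 peaks inside and 4932438A13Rik had 1, and Slx4ip, 6030498E09Rik and Pcdha9 had 0.

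Among genes of any length, 10 (0.0465% of 21521) had at least 10 peaks with the flanks. The genes with the most peaks were Pde4d with 12, a phosphodiesterase gene of 1302 kb, and Arhgap26 and Gse1 with 11 each, of 775 and 353 kb. Cdk6 was 1 of 7 genes with 10, beside Bicc1, Thsd4, Mcc, Smg6, Ctif and Lpp. With the list reduced to peaks at or above the median width, Cdk6 had 4 peaks, and 127 coding genes had as many or more. Within the gene alone, 11 protein-coding genes had 9 peaks or more, and 0 of them were shorter than Cdk6. The peaks were laid out differently in the 2 genes of like length and equal count. With each gene divided into 3 equal parts from left to right, Cdk6 had 4, 1 and 4 peaks, Bicc1 1, 4 and 4, and Smg6 2, 5 and 2. The median width of the peaks inside was 617 bp for Cdk6, 631 bp for Bicc1 and 838 bp for Smg6.

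**Figure D3:**
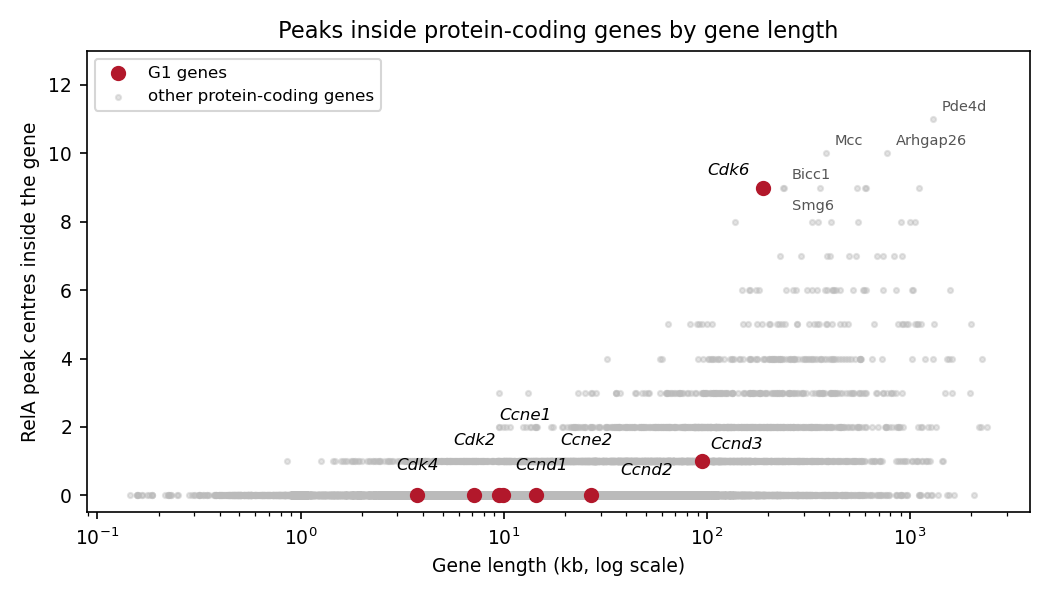
Each point is a protein-coding gene, with its length (kb, log scale) on the horizontal axis and the number of RelA peak centres inside it on the vertical axis. The 8 G1 genes are red and named in italics. Cdk6 has 9 peaks at 190 kb, Ccnd3 has 1 at 94.6 kb and the other 6 have 0 inside.

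Cdk4, the partner of D-type cyclins that shares the role of Cdk6, is a short gene of 3.75 kb (chromosome 10, 127063535 to 127067288). Its peaks, at 127042638 to 127043166 (529 bp) and 127050753 to 127051428 (676 bp), were centred 20.6 and 12.4 kb upstream of its start site. Both lay in other genes. The farther one was inside Mettl1, a tRNA methyltransferase gene, 0.888 kb from the end of Eef1akmt3, and the nearer one was inside Cyp27b1, which encodes the enzyme that makes active vitamin D. Cdk4 stands among 9 other coding genes within 50 kb, all of which count at least 1 of the same peaks. Its ratio of 0.533 peaks per kb of gene, above the 0.0526 of Cdk6, comes from peaks in the flanks divided by a short gene. Per 100 kb searched, Cdk6 had 3.45 and Cdk4 had 1.93.

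Cdk2, the kinase of E-type cyclins, lies 1.63 Mb from Cdk4 on the same chromosome (128697938 to 128705051). Its only peak in the window (128669641 to 128670308, 668 bp) was 28.0 kb from the gene and 35.1 kb downstream of the start site. That peak was centred 0.087 kb from an end of Suox, the sulfite oxidase gene, and 0.303 kb from an end of Ikzf4, a zinc finger factor gene.

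Of the 3 D-type cyclin genes 1 had a peak, against 43.2% of all protein-coding genes, and the median over all genes was 0 peaks. Ccnd3 on chromosome 17 (47505051 to 47599689) is the longest of the relatives, at 94.6 kb, and had 1 peak inside (47507961 to 47508421). At 461 bp it was narrower than most: 3.69% of all peaks were narrower still. The centre lay 3.14 kb downstream of the first of the 2 start sites listed for Ccnd3, and 85.3 kb upstream of the second. As in Cdk6, the peak nearest to the first start site was therefore inside the gene, downstream of the promoter window.

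Ccnd1 (chromosome 7, 144929931 to 144939831), the D-type cyclin gene best known as a target of growth signals in fibroblasts, had no peak in its window. The nearest peak centre was 62.2 kb from it, on the right side. At Ccnd2 (chromosome 6, 127125162 to 127152188) the nearest lay 67.7 kb away, on the left side. Both would be counted with a window of 100 kb, where each has 2 peaks. For Ccnd1, 46.9% of protein-coding genes had a peak as close or closer, and for Ccnd2 48.9%, so both stood near the middle of all genes.

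The E-type cyclin genes differed in their surroundings. Ccne1 (chromosome 7, 38097984 to 38107490) was the farthest of the 8 from any peak, at 123 kb, and 63.5% of protein-coding genes had one as close or closer. No other coding gene touches its 50 kb window. Ccne2 (chromosome 4, 11190433 to 11204779) had a 713 bp peak 34.1 kb to its left and an 836 bp peak 49.5 kb to its right, and the second was just inside the limit of 50 kb. The left peak (11155974 to 11156686) was centred 0.111 kb from an end of Trp53inp1, a gene induced by p53. The right peak (11253842 to 11254677) was centred 0.006 kb from an end of Ints8, a subunit of the Integrator complex. With each peak given to the coding gene it lies in or is nearest to, 9 peaks remained with Cdk6, 1 with Ccnd3 and 0 with the other 6 genes.

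The rest of the pathway was counted in the same way, in 5 lists with 50 genes in all, written from general knowledge. A peak inside or within 50 kb was present for 28 of 50 genes (56.0%), against 43.2% of all protein-coding genes, and 14 of 50 had one within 10 kb of an end, against 17.1%. Peaks inside the gene were present for 7 of 50, against 14.6%, and within 1 kb of an end also for 7 of 50, against 6.34%. The median was 1 peak and the highest count was 4, so 0 of the 50 reached the 10 of Cdk6. These are counts of neighbouring positions, and genes that share a peak are counted separately.

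CDK inhibitor genes had a peak in 5 of 7 cases (71.4%), against 43.2% of all protein-coding genes. Cdkn1a, the CIP/KIP inhibitor gene induced by p53, had 3 peaks, all to the left of the gene, at 37.0, 11.9 and 8.91 kb. Cdkn2d, of the INK4 group, had a 941 bp peak 0.554 kb from its end (chromosome 9, 21287435 to 21288375), which was centred 0.064 kb from an end of Kri1 and inside that gene. Cdkn1b had a 646 bp peak at 2.91 kb (chromosome 6, 134928110 to 134928755). A peak inside the gene was present for 0 of 7, against 14.6% of all protein-coding genes, and the 7 genes are short, at 2.72 to 20.1 kb.

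Pocket protein genes, the targets of the kinases, and E2F genes together had a peak in 7 of 13 cases (53.8%), against 43.2% of all protein-coding genes. Rbl1, a retinoblastoma relative, had a 684 bp peak at its start site (chromosome 2, 157204261 to 157204944), centred 0.068 kb from the gene end, which covered the promoter window shown above. A further Rbl1 peak lay 11.2 kb to the left, inside Samhd1. E2f2 had 3 peaks, with the closest at 8.65 kb, and E2f8 had 2, the closer at 5.92 kb. Rb1, the retinoblastoma gene itself and named after its value was seen, had 1 peak at 49.2 kb.

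Other regulators of the G1 to S step had a peak in 6 of 11 cases (54.5%), against 43.2% of all protein-coding genes. Within 1 kb of an end, 3 of 11 had one, against 6.34%. Ccnh and Mnat1 encode partners of CDK7 in the kinase that activates other CDKs, and had peaks 0.098 and 0.439 kb from a gene end. Mnat1 had 3 peaks, and the nearest (chromosome 12, 73112325 to 73112924) also lies inside Six4, a homeobox gene. Another, 1.74 kb from the end of Mnat1, lies inside Six4 as well, and the last was 30.8 kb away. Fbxo31, an F-box gene of cyclin D1 degradation, had a 547 bp peak at 0.382 kb that overlapped its promoter window by 84 bases. Myc, which drives cell growth and G1 entry, had 2 peaks, at 1.05 and 11.0 kb. Cdc25a, the phosphatase gene that activates CDK2, had 2 peaks, at 25.8 and 38.8 kb.

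Cyclins and the kinase of later phases had a peak in 1 of 5 cases (20%), against 43.2% of all protein-coding genes. The gene with peaks was Ccna2, with 3, the nearest 12.7 kb away and 1347 bp wide. It was centred 0.472 kb from an end of Exosc9. Cdk1, Ccna1, Ccnb1 and Ccnb2 had 0.

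**Figure D4:**
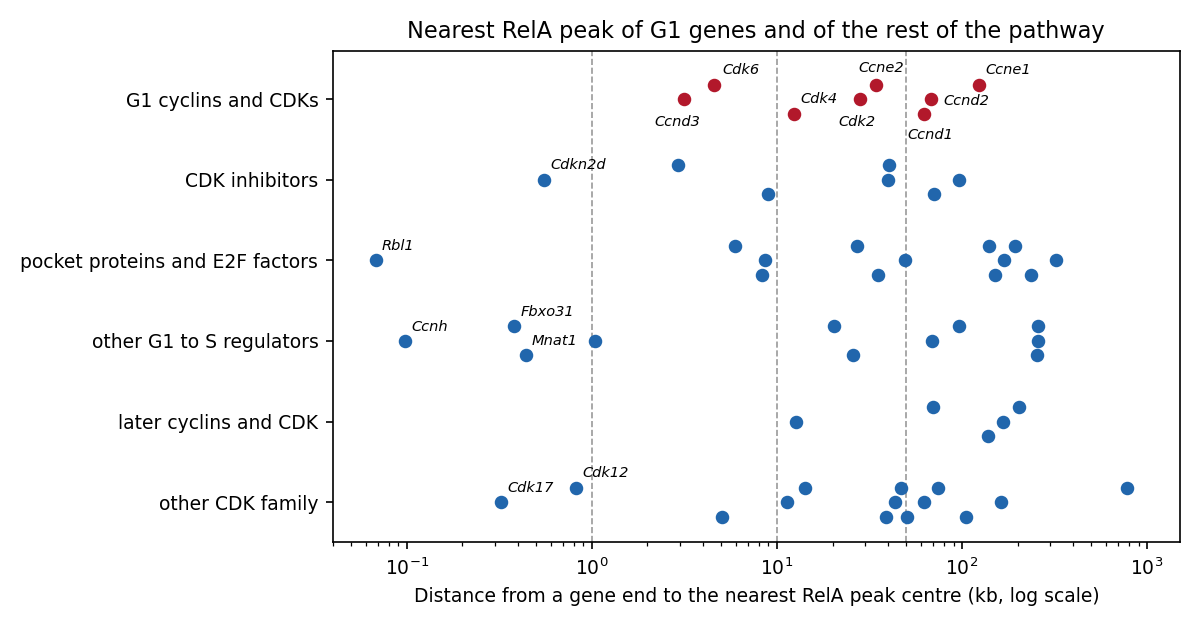
Each point is a gene, placed by the distance in kb (log scale) from a gene end to the nearest RelA peak centre, with the 8 G1 genes in red on the top row and the 5 other lists below. Dashed lines stand at 1, 10 and 50 kb, and genes within 1 kb are named. In the top row Ccnd3 (3.14 kb) and Cdk6 (4.55 kb) lie under 10 kb and 0 of the 8 under 1 kb.

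Among other members of the CDK family, 9 of 14 had a peak, against 43.2% of all protein-coding genes, and 5 of 14 had one inside, against 14.6%. The 5 with a peak inside were Cdk14, of 577 kb, and Cdk5, Cdk12, Cdk15 and Cdk17, of 16.0 to 95.6 kb. A share for genes of these lengths was not computed. The Cdk5 peak also lies inside Abcb8, another coding gene, and was centred 0.08 kb from an end of it. The Cdk17 peak 1.91 kb from an end of Cdk17 also lies inside the coding gene Elk3. Cdk14, a long gene of 577 kb on chromosome 5, as Cdk6 is, had 4 peaks, all inside. Cdk6 had 0.0526 peaks per kb of gene, against 0.00693 for Cdk14. Cdk15 had 3 peaks inside a gene of 95.6 kb. Cdk17 had 3 peaks, with 2 of them on either side of its left end, at 0.325 and 0.553 kb, and widths of 643 and 971 bp. Cdk12, the kinase gene of transcription elongation, had a 1026 bp peak that covered the promoter window shown above (chromosome 11, 98202747 to 98203772). Of the family list, Cdk14 came closest to Cdk6 in the number of peaks. The peaks inside Cdk6 were 4.55 to 64.7 kb from the nearer gene end, against 105 to 240 kb for those of Cdk14. Gene length limits this comparison, because Cdk6, at 190 kb, is too short for any inside peak to lie 105 kb from both ends.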

How the data were processed

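RelA ChIP-seq was run on 6 libraries, with 2 input DNA libraries. The submitters' processing notes name the mm10 genome and the tools MACS2, deepTools, Bowtie2 2.3, cutadapt 1.9.1, Picard 1.13 and SAMtools, without their roles. How peaks were thresholded, how the input entered and whether libraries were pooled is not given in the sources used here. Formaldehyde was preceded by disuccinimidyl glutarate as a second cross-linker, per the labels' protocols, which can also hold RelA that reaches DNA through other proteins. The deposited list gives peak positions in base pairs. Starts were converted to positions counted from 1, and 6 peaks on contigs were left out.

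Gene positions came from the RefSeq table of GRCm38.p6 (mm10), without 345 genes placed on scaffolds. The table has no strand or exons. Strand and start sites came from RefSeq promoter windows. Peak centres were counted inside genes and within 50 kb of either end with Python 3.11.15, numpy 2.4.6 and pandas 2.3.3, after the counting was tested on simulated peaks. Nothing was tested for significance, because the list has no samples to compare. The members and lists were chosen with earlier results of these data known. Named genes were the 8 members, coding genes in the Cdk6 window, the 5 genes nearest to Cdk6 in length, the 5 with the highest counts (widened to all 10 with at least 10 peaks, since 7 tied), and in each list the top 3 by count and those within 1 kb. Genes that a peak of these genes lies in or beside, the other tied genes, and Rb1 were named after their values were seen.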

Additional observations from a re-analysis of the deposited data

How the results depend on the processing

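The count of 10 peaks for Cdk6 did not change with 20 or 100 kb flanks, with any overlap in place of the centre or with peaks within 1 kb merged, and was 9 inside the gene alone and 9 with each peak given to the nearest coding gene only. With the wider peaks alone, those at or above the median width, Cdk6 had 4 peaks, or 0.0211 per kb of gene, and its nearest peak was 8.15 kb away; 127 coding genes had as many peaks or more. The number of coding genes with as many peaks as Cdk6 or more was 5 with 20 kb flanks and 28 with 100 kb flanks, against 10 with 50 kb. With gene and flanks as the denominator Cdk6 had 0.0345 peaks per kb, and from the start site its nearest peak was 1.67 kb away. Of the 8 genes, 3 had a peak with 20 kb flanks and 2 inside the gene, with wider peaks or by the nearest coding gene, against 5 with 50 kb. Over all protein-coding genes the share was 43.2% with 50 kb flanks and 14.6% inside the gene. It was not computed for the other settings, so the lower counts cannot be read as particular to these genes. Among values of the relatives, 18 of 60 moved, which means by over 1.5 times, to 0, or from 0 to any other value. Keeping the wider peaks removes by construction the narrower part of the list; the other changes follow from the window, the denominator, the rule that gives a peak to a gene or the point that distances are measured from, each of which was the only choice changed. No paired analysis was possible because the peak list has no column per library, and for the same reason no library could be left out. Depth was unknown, so a gene with no peak may be bound below the detection limit of the list.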
